A study of Caenorhabditis elegans with 2 samples.

Results

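The regions described here are 2990 peaks of a chromatin immunoprecipitation and sequencing (ChIP-seq) experiment that lie just below the set its authors called reproducible. They were chosen by measured values. In the pooled list of 30000 peaks and background regions, a member is a peak on 1 of the 6 nuclear chromosomes whose rank by the authors' signal value comes after the 1707 ranks of the reproducible set and ends at 5000, that overlaps by at least 1 bp a peak in the list of each replicate, and that overlaps none of the peaks that passed the irreproducible discovery rate (IDR), a measure of how well peak ranks repeat between replicates. The rank range holds 3293 peaks, of which 1 is mitochondrial. Of the other 3292, 3046 overlapped a peak of both replicate lists, 192 of replicate 1 only, 53 of replicate 2 only and 1 of neither. A further 56 of those found in both overlapped an IDR peak and were left out, which leaves the members at 90.8% of the range. They are called members below, and are set beside the 1684 nuclear IDR peaks and the 24999 nuclear peaks ranked after 5000, called lower-ranked peaks. The lower-ranked peaks were taken by rank alone, with no filter on overlap with the replicate lists or the IDR peaks, and 24789 of them overlapped no IDR peak. Comparisons with them are therefore not of rank alone.

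The samples were whole young adult hermaphrodites of the Caenorhabditis elegans strain OP429, whose genotype is unc-119(tm4063) III; wgIs429. The strain stably expresses F23B12.7 with a C-terminal GFP-FLAG tag, and DNA from sonicated chromatin was recovered with an antibody against GFP. There was 1 group of 2 biological replicates, so no conditions are compared, and 1 transgenic line stands for the protein. The material is whole animals, so a peak carries no information on which tissue it came from.

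A peak caller scores how far the reads at a place exceed those of a control, and IDR then looks for the point in the ranking at which the replicates stop agreeing. Peaks below that point can be weaker binding or background, and the lists do not separate these. In C. elegans a leader is spliced onto most messages, so an annotated start may lie downstream of where transcription begins, and short intergenic spaces often serve as promoters for a pair of genes read in opposite directions. The genes of tRNAs are read by RNA polymerase III from promoter elements inside the gene.

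The sequences under the summits of 8 members are shown, because the base composition and short repeats described further on can be read in them. Each is the summit base with 50 bp on either side, given 5′ to 3′ on the plus strand of ce11, which is the same assembly as WBcel235. They are the members of highest signal in each of 3 kinds of place among those that could be printed. That pool holds 1959 members, since 1 chromosome was left out, which leaves 2442, and 483 windows that touch an annotated untranslated region were passed over. Capitals mark the 5 short sequences that separated members most clearly from their flanks (AGAGAG and ACGCAG, then GAGAGA with AAGAGA and AGAGAA, read on either strand), except in the F46G11.t2 window, where they mark the 44 bases that lie in the tRNA gene. The first 4 windows lie upstream of the starts of listed genes, namely arx-5 (a subunit of the Arp2/3 actin-nucleating complex), arf-5 (an Arf family GTPase of vesicle transport), pas-7 (an alpha subunit of the proteasome core, here with the opposed gene puf-12) and mrpl-36 (a mitochondrial ribosomal protein). The next is in an intron of pqn-41 and the sixth is between genes. The last windows are beside the tRNA genes F46G11.t2 and F08G5.t3.
arx-5, chrIII:12818405-12818505: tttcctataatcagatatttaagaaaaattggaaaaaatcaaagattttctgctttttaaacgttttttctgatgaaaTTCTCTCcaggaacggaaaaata
arf-5, chrIV:7982130-7982230: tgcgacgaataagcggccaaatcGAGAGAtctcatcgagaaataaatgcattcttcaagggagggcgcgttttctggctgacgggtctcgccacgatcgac
pas-7 and puf-12, chrII:10100026-10100126: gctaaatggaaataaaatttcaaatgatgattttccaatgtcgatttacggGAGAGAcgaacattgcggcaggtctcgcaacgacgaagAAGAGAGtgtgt
mrpl-36, chrIII:9848211-9848311: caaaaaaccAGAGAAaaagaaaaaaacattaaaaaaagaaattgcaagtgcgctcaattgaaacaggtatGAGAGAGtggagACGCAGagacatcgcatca
pqn-41 intron, chrIII:1925239-1925339: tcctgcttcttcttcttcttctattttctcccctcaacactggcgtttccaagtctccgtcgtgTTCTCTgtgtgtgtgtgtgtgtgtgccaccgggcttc
between genes, chrIII:6447762-6447862: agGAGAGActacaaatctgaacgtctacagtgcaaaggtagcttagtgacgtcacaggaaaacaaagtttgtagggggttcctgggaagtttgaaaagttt
F46G11.t2, chrX:5801239-5801339: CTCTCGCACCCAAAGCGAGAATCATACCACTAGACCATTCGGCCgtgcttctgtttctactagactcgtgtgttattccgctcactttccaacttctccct
F08G5.t3, chrIV:12417059-12417159: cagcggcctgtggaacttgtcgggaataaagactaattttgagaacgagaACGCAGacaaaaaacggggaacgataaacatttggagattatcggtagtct

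These windows differ widely in composition. The G+C share is 25.7% at arx-5, 36.6% at mrpl-36, 41.6% at pas-7 and 52.5% at arf-5, and it is 51.5% in the pqn-41 intron, 42.6% between genes, 49.5% at F46G11.t2 and 43.6% at F08G5.t3. The mrpl-36 window holds the most of the marked sequences, with 4 of the 5. The F46G11.t2 window holds none of them.

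The same 8 peaks show how the replicates contribute. The arx-5 peak has a pooled signal of 37.7 and is ranked 2606 in replicate 1 and 1209 in replicate 2. The arf-5 peak has a signal of 37.1 with ranks of 2375 and 1441, and the pas-7 peak 36.99 with ranks of 1806 and 4794. For mrpl-36 the signal is 36.8 and the ranks are 1505 and 3413. The pqn-41 intron peak (38.0; ranks 3280 and 2396) and the peak between genes (37.9; ranks 2047 and 1543) are nearly level in the pooled list. The F46G11.t2 peak is the highest member (38.0; ranks 2721 and 585), and the F08G5.t3 peak follows it (38.0; ranks 3026 and 2687). None of the 8 is in the 500 highest peaks of either replicate.

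The authors' signal values of the members run from 21.8 to 38.0, with a median of 27.2, and their −log10 q-values from 0.950 to 2.36. The rule set this range, so it is a description. The 3 highest members, at 37.99, 37.97 and 37.97, sit directly under the last 3 IDR peaks, at 38.06, 38.04 and 37.99. The replicate ranks of those 3 IDR peaks are 1203 and 7817, 4273 and 1059, and 2401 and 1294, and those of the 3 highest members are 2721 and 585, 3026 and 2687, and 1228 and 11417. The peaks on the 2 sides of the upper bound thus overlap in their replicate ranks. At the lower bound the last 3 members and the first 3 peaks outside all round to 21.8, and of the 3 outside, 1 has no overlapping peak in the list of replicate 2. All members are 356 bp wide, and merging those that overlap leaves 2940.

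How many members both replicates shared depended on how deep their lists were read, and the rule itself holds the pooled rank in a band. In replicate 1, 257 members (8.60%) were among the 1707 highest peaks, and in replicate 2, 389 (13.0%), but only 23 (0.769%) were in both. Of the IDR peaks, 957 (56.8%) were in both. Among the 5000 highest of each replicate the members numbered 2026 in replicate 1, 1698 in replicate 2, 1020 in both and 286 in neither. Among the 10000 highest, 2138 (71.5%) were in both, 556 in replicate 1 only and 282 in replicate 2 only. The summit of the overlapping replicate peak lay a median of 15 bp away in replicate 1 and 39 bp away in replicate 2.

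**Figure D1:**
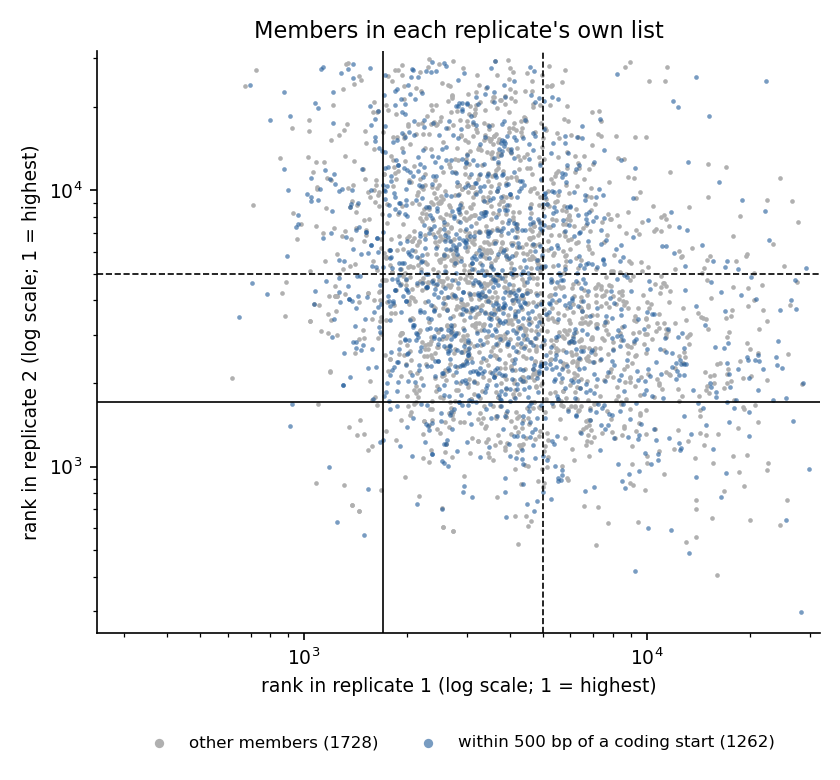
Rank of each of the 2990 members in the list of replicate 1 (x axis) and of replicate 2 (y axis), both on log scales, with solid lines at rank 1707 and dashed lines at 5000. The lower left corner inside the solid lines holds 23 members, and the cloud spreads to ranks near 30000 in either replicate.

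Some members stand high in both replicates. R03D7.2 (ranks 1249 and 633), lin-49, which encodes a bromodomain protein (923 and 1686), scav-3, a scavenger receptor homologue (1703 and 1252), unc-11, the clathrin adaptor AP180 (1495 and 566), unc-14 (1187 and 996) and stam-1 (1539 and 832) have such a member at their start. Another lies 192 bp from the microRNA gene cel-mir-52 (1462 and 1481). At the other end, the member at cyl-1, a cyclin L gene, is ranked 698 in replicate 1 and 24095 in replicate 2, and the member shared by drap-1 and aagr-3 is ranked 28219 and 297. These examples were chosen after their values were seen.

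The members were spread between promoters, introns and intergenic sequence, and in most classes their shares lay between those of the IDR peaks and the lower-ranked peaks. A summit within 500 bp of a protein-coding start was found for 1262 members, a share of 42.2% (95% exact binomial interval 40.4 to 44.0%). The share was 59.8% (57.4 to 62.2%) of the IDR peaks and 22.3% (21.8 to 22.9%) of the lower-ranked peaks. Both differences passed the two-sided Fisher's exact test, which is used throughout for positions, with p-values adjusted over 22 tests by the Benjamini-Hochberg method (adjusted p = 2.96e-30 against the IDR peaks and 2.28e-112 against the lower-ranked peaks). Without peaks at RNA genes, the difference from the IDR peaks was 27.7 percentage points in place of 17.6 (Fisher's exact test, adjusted p = 1.87e-62). Neighbouring peaks are not independent, so these p-values and intervals cover counting error only.

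Members within 250 bp of a tRNA, snoRNA or snRNA gene numbered 174, or 5.82% (5.01 to 6.72%). The share was 22.1% of the IDR peaks (adjusted p = 6.11e-59) and 0.956% of the lower-ranked peaks (adjusted p = 3.15e-61), by the same Fisher's exact test. Of all members, 1233 were at a coding start only, 145 at such an RNA gene only, 29 at both, and 1583 at neither.

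Away from coding starts, exons of protein-coding genes held 290 members (9.70%), against 3.15% of the IDR peaks (adjusted p = 9.21e-18) and 14.8% of the lower-ranked peaks (adjusted p = 1.85e-14, exact test). Introns held 598 (20%), against 15.97% (adjusted p = 0.00158) and 34.6% (adjusted p = 2.19e-61, exact test). For introns the difference from the IDR peaks did not pass the exact test among the 1563 members of higher rank (2.90 points, adjusted p = 0.0648). The remaining 840 members (28.1%) lay between genes, against 21.1% of the IDR peaks (adjusted p = 2.96e-07) and 28.3% of the lower-ranked peaks, a difference of -0.21 points that did not pass the exact test (adjusted p = 0.913).

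The shares differed from one rank step to the next. Promoter shares were 46.9% of the members ranked up to 2500, 44.4% of the next step, 37.2% of the step that ends at rank 4200 and 39.9% of the last, then 32.1% of the 2500 peaks that follow. Within the members the intervals of the first pair of steps overlap, as do those of the last pair, while those of the middle pair (40.9 to 47.9% and 33.8 to 40.8%) do not. RNA gene shares were 9.67% in the first step of members and 2.37% in the last. The largest difference between neighbouring bins for RNA genes was from 22.1% of all IDR peaks to 9.67% in the first step of members. The IDR peaks were kept as 1 bin of 1707 ranks, so these shares do not show where in the ranking the fall lies. No test was run between steps, since rank defines the members.

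**Figure D2:**
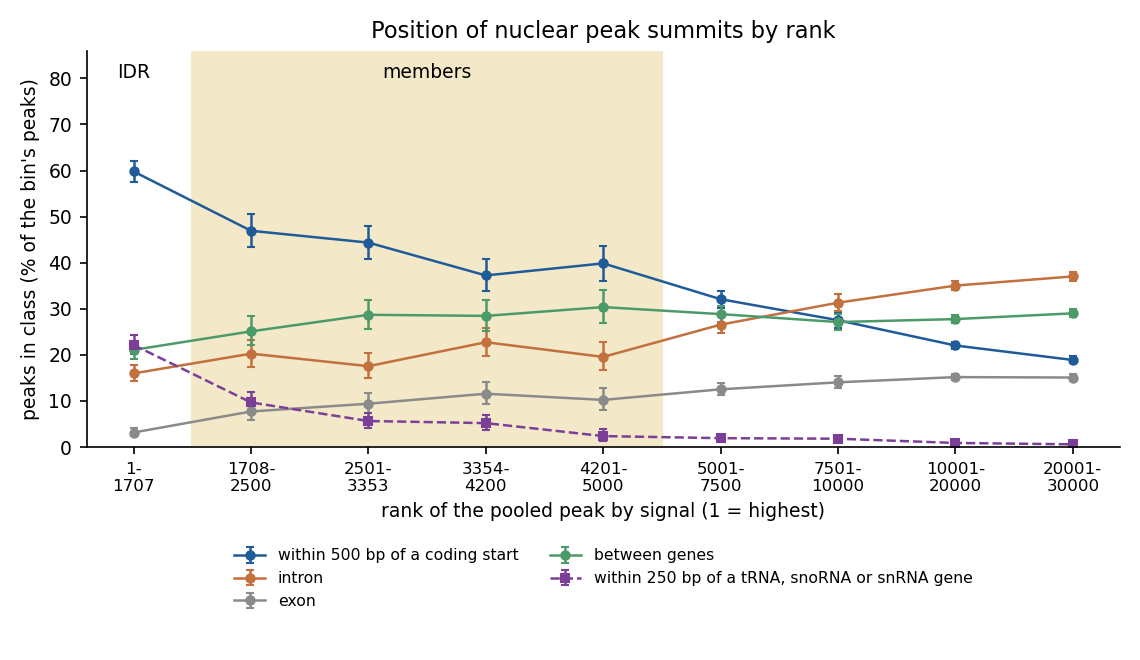
Share of nuclear peaks in each position class (y axis, %) by rank in the pooled list (x axis, 1 is highest), with 95% exact binomial intervals; the shaded bins hold the members, the first bin the IDR peaks. The promoter share falls from 59.8% to 18.9% across the bins and the intron share rises from 15.97% to 37.02%.

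The 246 nuclear peaks of the same ranks that missed a peak in 1 or both replicates had a similar make-up. Of these, 39.4% (33.3 to 45.8%) were at a coding start and 5.28% (2.84 to 8.87%) at an RNA gene, intervals that contain the members' shares. Members were less frequent on chromosome IV than lower-ranked peaks were (17.5% against 19.9%, Fisher's exact test, adjusted p = 0.00371), and none of the other 11 chromosome comparisons passed the test.

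Where members were near a start, they lay mostly upstream. The 1262 promoter members made 1506 pairs with 1480 genes, and 82.2% of the pairs had the summit upstream, at a median of -151 bp. For IDR peaks the share was 91.9% and the median -191 bp, and for lower-ranked peaks 61.7% and -84 bp. Members whose window reached starts on both strands numbered 234, or 18.5% of the promoter members (16.4 to 20.8%), against 32.1% (29.2 to 35.1%) of the IDR peaks at promoters and 5.63% (5.04 to 6.26%) of the lower-ranked peaks there. The 3 intervals do not overlap, and no test was run on this measure.

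**Figure D3:**
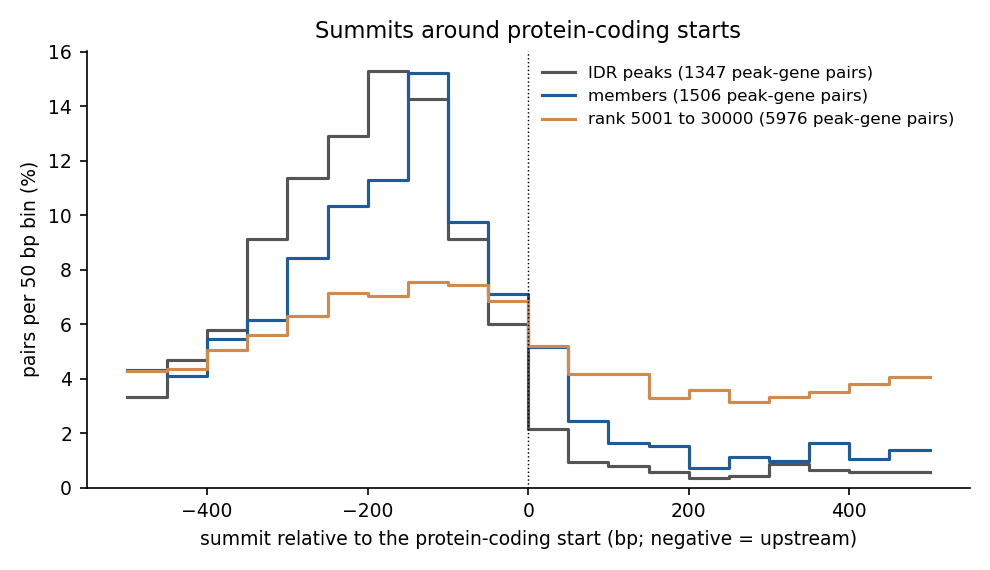
Position of summits relative to protein-coding starts (x axis, bp, negative is upstream) as the share of peak-gene pairs per 50 bp bin (y axis, %) for IDR peaks, members and lower-ranked peaks. Members peak at 15.2% in the bin from -150 to -100 bp and fall below 3% beyond 50 bp downstream, while lower-ranked peaks stay above it.

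Of 19973 protein-coding genes, 1480 had a member summit within 500 bp of the start, a background of 7.41%. IDR peaks reached 1342 genes (6.72%), and only 20 genes had both kinds, which are 1.35% of the genes with a member and 1.49% of those with an IDR peak. The rule removed members that overlap an IDR peak, so few shared genes follow from it. The share of a list's genes with a member thus also depends on how many of them have an IDR peak. Among the 18631 genes with no IDR peak, 1460 (7.84%) had a member, and 2802 genes (14.03%) had one or the other. The counts of 28 lists of genes, chosen by name, are given against these shares without a test. For all genes the count of 1480 was 556 with the 5000 highest of each replicate and 975 at a reach of 250 bp. With those 5000 highest the count fell in every list but muscle, so this limit holds also where it is not given below. A summit in reach of several starts was counted for each gene, even where another start was nearer. Among the list genes named below, another start is nearer for rps-6, mrps-6, egl-45, erfa-1, qars-1, pas-2, uba-2, npp-25, vha-17, dnc-2, sdhd-1 and hxk-2. The same holds for sftb-6, rpa-4, taf-6.2, puf-12, deps-1, nhr-68 and col-71. With only the nearest start counted, 1244 genes had a member.

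Of 81 cytosolic ribosomal protein genes, 65 had an IDR peak and 3 (3.70%) a member. All 3 are among the 16 genes of the list without an IDR peak (18.75%), against 7.84% of all such genes. They include rps-6, a small-subunit protein (signal 28.8, replicate ranks 2284 and 2311), and rla-1, of the ribosomal stalk (25.6, ranks 3362 and 4958). Mitochondrial ribosomal protein genes had a member in 12 of 70 (17.1%), with 19 at an IDR peak, and the highest were mrpl-36 (36.8), mrps-16 (36.2; ranks 4319 and 1153) and mrps-6 (35.1; ranks 11773 and 589). Translation factors had 6 of 43, led by egl-45, a subunit of initiation factor eIF3 (34.3), erfa-1, the release factor that reads stop codons (33.2), and eif-2D (31.5). Both ranks of egl-45 are moderate, at 2669 and 2741. The summits at rps-6, mrps-6, egl-45 and erfa-1 lie nearer to the starts of usp-3, rpn-8, kcmf-1 and gad-1. A snoRNA gene is also in reach of the rla-1 summit. Of the 20 translation factor genes without an IDR peak, 5 (25%) had a member. The translation factor count was 2 at a reach of 250 bp and 3 with the 5000 highest of each replicate. For mitochondrial ribosomal proteins the counts were 9 and 6.

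The aminoacyl-tRNA synthetases, the enzymes that join each amino acid to its tRNA, had more genes with a member than with an IDR peak. A member was at 11 of their 32 genes (34.4%, interval 18.6 to 53.2%) and an IDR peak at 3. The highest were mars-1 for methionine (31.8; ranks 3820 and 5967), qars-1 for glutamine (31.4; 2202 and 5518) and nars-1 for asparagine (29.0; 8004 and 2644). The median signal over the list's members is 26.9, against 27.2 for all members. The count depended on the rule: it was 1 where a peak was required among the 5000 highest of each replicate, 5 among the 1563 members of the upper ranks, 6 at a reach of 250 bp and 7 where only the nearest start was counted. Genes of ribosome biogenesis had a member in 4 of 29 and an IDR peak in 9. They were led by nol-56, a nucleolar box C/D snoRNP protein (36.4; 4189 and 1292), and rpoa-1, the large subunit of RNA polymerase I (30.2; 1715 and 9994).

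The proteasome list had a member in 8 of 33 genes (24.2%, interval 11.1 to 42.3%) and an IDR peak in 17, so that 8 of the 16 genes without an IDR peak had a member. The count was 4 with the 5000 highest of each replicate and 5 at a reach of 250 bp. The genes include pas-7 (36.99), the lid subunit gene rpn-8 (35.1; ranks 11773 and 589) and pas-2, an alpha subunit of the core (34.96; 3059 and 3473). The rpn-8 peak is the one at mrps-6, which is read in the opposite direction. Ubiquitin pathway genes had 17 of 77 (22.1%), led by the cullin gene cul-3 (36.2), ubxn-4 (34.4) and uba-2, a subunit of the SUMO-activating enzyme (33.8). The uba-2 summit lies inside vps-25, 39 bp from the start of that gene. The ubiquitin count was 10 with the 5000 highest of each replicate and 8 at a reach of 250 bp. Chaperone genes had 8 of 66 (12.1%, interval 5.38 to 22.5%) and 2 at a reach of 250 bp, with dnj-29 (37.9; ranks 10068 and 601), cct-2 of the cytosolic chaperonin (35.4) and pfd-3 of prefoldin (34.3; 707 and 4609).

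The vacuolar ATPase, which acidifies organelles, had a member at 7 of 20 genes (35%, interval 15.4 to 59.2%) and an IDR peak at 6, which left 7 genes with neither. Its count was 2 both with the 5000 highest of each replicate and at a reach of 250 bp. The highest were vha-15 (35.8; 4349 and 1020), vha-10 (33.6; 1104 and 9208) and vha-17 (32.1; 1777 and 3963). Vesicle transport genes had 22 of 98 (22.4%), among them vps-33.2 (37.3; 2738 and 2968), arf-5 (37.1) and the exocyst gene sec-8 (36.4; 877 and 11934). Nuclear pore and importin genes had 10 of 43 (23.3%), with npp-22 (32.8), npp-18 (30.5) and npp-25 (30.4). Replicate ranks were 6607 and 813 for npp-22, 1646 and 19379 for npp-18, and 5664 and 930 for npp-25. The npp-25 summit lies nearer to the start of mrps-10. The nuclear pore and importin count was 2 with the 5000 highest of each replicate and 4 at a reach of 250 bp. For vesicle transport the counts were 12 and 16. Cytoskeleton genes had 11 of 75 (14.7%), with arx-5 (37.7), dnc-2 of dynactin (36.8) and arx-6 of the Arp2/3 complex (33.5; 1868 and 1874).

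Mitochondrial respiration genes had an IDR peak at 27 of 51 and a member at 6, and 1 gene had both. Of the 24 without an IDR peak, 5 (20.8%) had a member. The member count was 1 with the 5000 highest of each replicate. The highest were sdhd-1 of succinate dehydrogenase (34.1), nuo-3 of complex I (31.4, ranks 1219 and 22644) and cox-18 (28.4). Glycolysis and tricarboxylic acid cycle genes had an IDR peak at 5 of 41 and a member at 10 (24.4%, interval 12.4 to 40.3%), a count that was 2 with the 5000 highest of each replicate and 6 at a reach of 250 bp. The hexokinase gene hxk-2 (37.4; 2646 and 1801) shares its member with cdk-9, a kinase of transcription elongation that lies on the other strand. Next were gpi-1, which makes fructose 6-phosphate from glucose 6-phosphate (36.7; 1744 and 1866), and the fumarase gene fum-1 (35.4; 1232 and 10509).

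The spliceosome list had a member in 8 of 57 (14.04%) and an IDR peak in 26. Of its 31 genes without an IDR peak, 8 (25.8%) had a member. The member count was 2 with the 5000 highest of each replicate. The highest were sftb-2 (35.3) and sftb-6 (34.4) of the SF3b complex and snr-7 of the Sm ring (27.5). DNA replication and cell cycle genes had 18 of 89 (20.2%), led by cdk-9 (37.4), him-19 (36.1), a gene of meiotic pairing, and rpa-4 (34.98). Lists were chosen by name, so cdk-9 counts here although it is a kinase of transcription elongation. Chromatin factors had 16 of 122 (13.1%), with the MYST family acetyltransferase gene mys-4 (37.1; ranks 1124 and 27488), hmg-3 of the FACT complex (35.1) and hmg-1.1 (31.8). The RNA polymerase II, TAF and Mediator list had 4 of 60 (6.67%), close to the background of 7.41%. Of its 45 genes without an IDR peak, 4 (8.89%) had a member, against 7.84% of all such genes. The highest were taf-6.2 (33.5) and spt-16 of FACT (33.1). Histone genes had 5 of 83 (6.02%), with the linker histone gene hil-5 (32.1), cpar-1, a relative of the centromeric histone gene hcp-3 (31.3), and his-59 (27.1). The his-59 summit lies 476 bp downstream of the start of that gene and inside no protein-coding gene. The histone count was 2 both with the 5000 highest of each replicate and at a reach of 250 bp. Many histone genes have near-identical copies, so reads may not be placed with certainty there.

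Germline and oocyte genes had a member in 17 of 69 (24.6%, interval 15.1 to 36.5%) and an IDR peak in 9. The member count was 4 with the 5000 highest of each replicate and 12 at a reach of 250 bp. The highest were puf-12 (36.99, the pas-7 peak), fbf-1, which maintains germline stem cells (36.1; 1676 and 3869), and deps-1 of P granules (34.6; 2023 and 5875). Argonaute and small RNA genes had 9 of 56 (16.1%), with the RNA-directed RNA polymerase gene rrf-1 (30.7), prde-1 (30.001), needed to transcribe piRNA precursors, and the Dicer gene dcr-1 (27.5; 10784 and 1115). The Argonaute and small RNA count was 2 with the 5000 highest of each replicate and 7 at a reach of 250 bp. Sperm genes had 2 of 90 (2.22%), spe-6 (30.4) and spe-39 (27.6).

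The lists of differentiated tissues had shares under the background of 7.41%. Neuron genes had 4 of 296 (1.35%), the same number as at IDR peaks, with the insulin-related gene ins-37 (35.9), which also has an snRNA gene in reach, and the neuropeptide gene flp-23 (34.8), which has a tRNA gene in reach. Muscle genes had 2 of 60 (3.33%), act-4 for actin (33.4) and unc-45, a myosin chaperone gene (25.7). Intestine genes had 20 of 524 (3.82%), with acdh-13 (36.1), gst-42 (34.8) and gst-43 (34.6). Cuticle collagens had 3 of 176 (1.70%), among them col-72 (29.2) and col-71 (28.4). The col-72 and ins-37 summits lie inside those genes, 424 and 203 bp downstream of the starts. The collagen count was 1 both with the 5000 highest of each replicate and at a reach of 250 bp. Homeobox, basic helix-loop-helix and related factors had 2 of 172 (1.16%), ceh-93 (34.996) and ets-6 (23.6), and 4 where overlap with replicate 2 was not required.

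Nuclear hormone receptors, a large family of ligand-regulated transcription factors in worms, had a share near the background of 7.41%. A member was at 23 of 269 (8.55%, interval 5.50 to 12.6%), while an IDR peak was at 6 (2.23%, against 6.72% of all genes). The member count was 5 with the 5000 highest of each replicate and 15 at a reach of 250 bp. For all 19973 genes those counts were 556 and 975. The highest were nhr-68, which takes part in propionate breakdown (36.0; 2832 and 1710), nhr-1 (34.4; 896 and 5774) and nhr-206 (32.3; 1999 and 8079). The median signal of the family's members, 25.1, is below the 27.2 of all members.

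**Figure D4:**
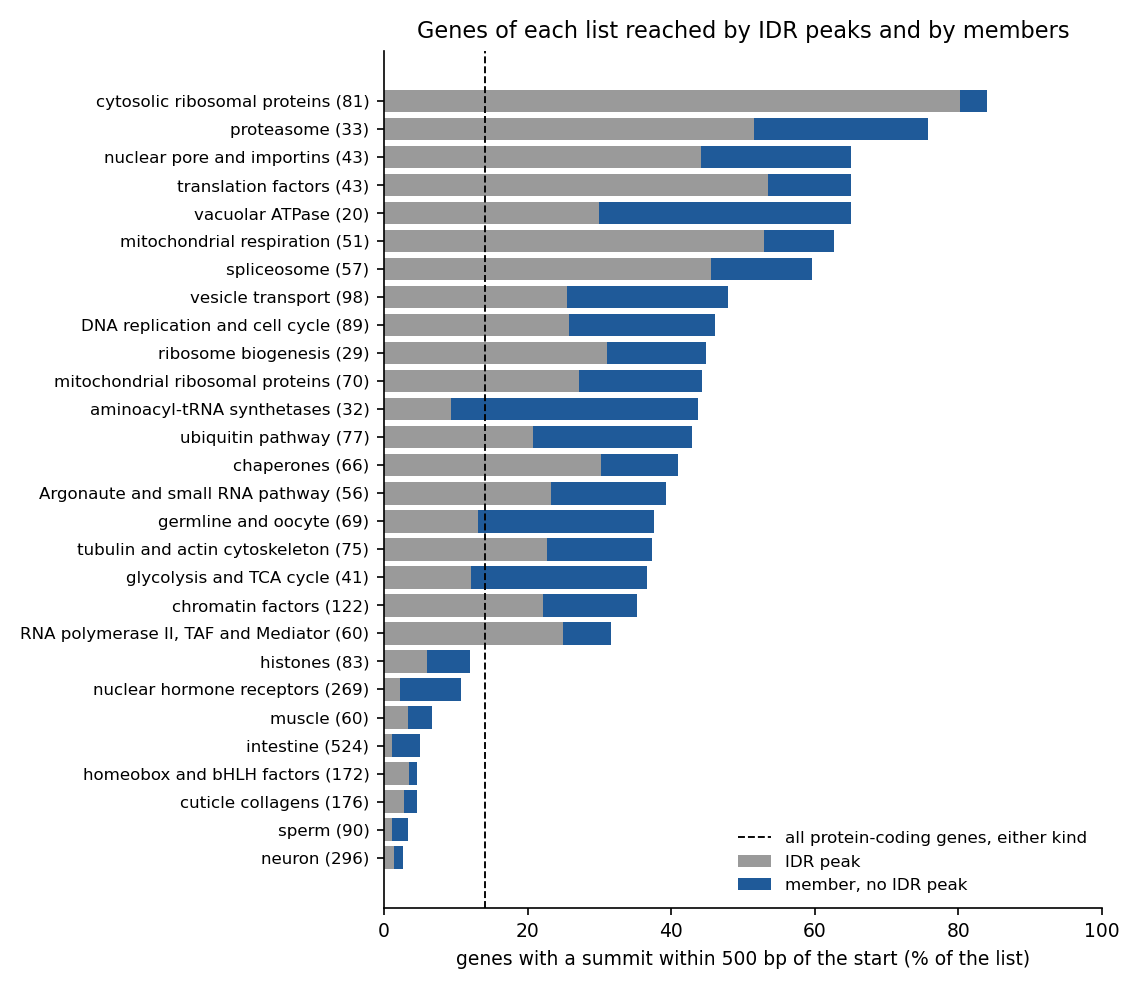
Share of the genes of each of 28 lists (number of genes in brackets) with an IDR peak within 500 bp of the start (grey) and with a member and no IDR peak (blue); the dashed line marks the 14.03% of all protein-coding genes with either. The proteasome bar reaches 75.8% and the vacuolar ATPase bar 65%, and the neuron, muscle, intestine and cuticle collagen lists lie under the line.

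No member lay within 500 bp of F23B12.7 or of unc-119, the gene whose mutation the strain carries. Within 20000 bp of F23B12.7 there was 1, at the receptor gene srz-97 (30.03), which also has an snRNA gene in reach, and of unc-119 none. Reads at the tagged gene can come from the inserted copy as well as from the normal one.

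RNA genes read by RNA polymerase III filled part of the range. Of 612 nuclear tRNA genes, 294 had an IDR peak within 250 bp and 138 others a member, so 43.4% of the 318 genes without an IDR peak had one, and 70.6% of tRNA genes had one or the other. The 138 genes were reached by 125 members, and in 69 of 147 pairs the summit was inside the gene, at a median distance of 4 bp. The highest were the F46G11.t2 and F46G11.t1 peak, at 7 and 183 bp from the genes, and that at F08G5.t3, 96 bp away, both shown above. Of tRNA genes on the X chromosome, 69 of 276 (25%) had a member, and on the autosomes 69 of 336 (20.5%).

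Identical tRNA copies limit these values. Of the tRNA genes with a member, 81.9% have a copy of the same sequence elsewhere in the nuclear genome. The share is 85.4% of those with an IDR peak and 58.3% of the 180 with neither. How the authors placed reads with several matches is not given in the sources used here, and its part in the result was not tested.

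Other small RNA genes were reached less. A member was near 26 of 346 snoRNA genes (7.51%), against 87 with an IDR peak, and near 19 of 129 snRNA genes (14.7%), against 25. The highest were W06H8.17 (37.7; ranks 1186 and 4129), Y65B4BR.12 in an intron of wwp-1 (36.4) and Y71F9AM.7 in an intron of cogc-3 (34.3; 1504 and 1314) for snoRNAs, and F10D2.13 (36.8), F08G2.9 (35.9) and F07C6.5 (35.2; 2467 and 2713) for snRNAs. MicroRNA genes had 12 of 261 (4.60%) and 7 with an IDR peak, with cel-mir-52 (35.5), cel-mir-60 (35.3; 2248 and 2523) and cel-mir-270 (33.6). Of 15363 piRNA genes 67 (0.436%) were near a member, and these involved 46 members (1.54% of all), against 5.18% of the lower-ranked peaks. Of 2128 pseudogenes 39 (1.83%) were near a member and 11 near an IDR peak. Of 20 nuclear rRNA genes none was near a member or an IDR peak, and the exact interval for 0 of 20 reaches 16.8%.

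**Figure D5:**
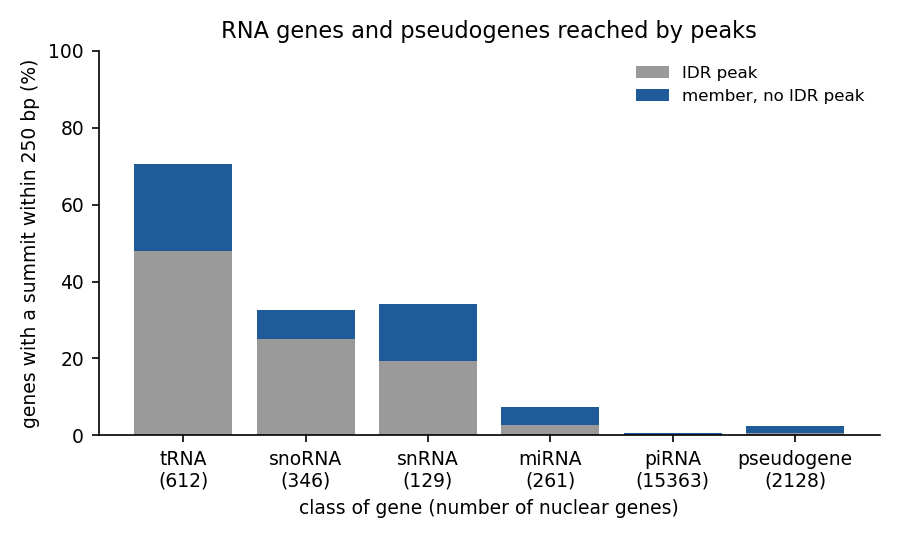
Share of the nuclear genes of each class (y axis, %; number of genes in brackets) with an IDR peak within 250 bp (grey) and with a member and no IDR peak (blue). For tRNA genes the bar reaches 70.6%, of which members add 22.5 points.

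The sequence under the summits was not used to choose the members. The median G+C share of the windows, again 50 bp on either side of the summit, was 38.6%, against 35.6% in windows centred 500 bp to the left. It was 45.5% for IDR peaks and 32.7% for lower-ranked peaks, and within the members it was 40.6% in the first rank step and 37.6% in the last. Of all sequences of 6 bases, with both strands read as 1, 322 (15.5%) were in more summit windows than flank windows and 261 (12.5%) in fewer, by the exact McNemar test with p-values adjusted over all of them. Such sequences overlap and share composition, so these counts are not counts of separate motifs. Of the 322, 255 were also more frequent at IDR summits, which is 79.2% of the members' sequences and 49.9% of the 511 of the IDR peaks.

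Runs of alternating G and A led. AGAGAG was in 388 of 2990 summit windows (13.0%) and 4.52% of flank windows (exact McNemar test, adjusted p = 3.61e-28), and was in 371 members in the summit only and in 118 in the flank only. GAGAGA (15.1% against 6.35%, adjusted p = 3.59e-25), AAGAGA (16.7% against 7.59%, adjusted p = 1.94e-24) and AGAGAA (20.3% against 10.4%, adjusted p = 7.15e-24) overlap it, by the same exact test. At least 1 of these 4 was in 950 summit windows (31.8%) and in 17.4% of flanks, and the IDR peaks had 31.1% and 16.8%. For the lower-ranked peaks the shares were 18.7% and 16.005%. Windows of the same length centred at -151 bp from all 19973 protein-coding starts held AGAGAG in 6.78%, GAGAGA in 8.39%, AAGAGA in 10.5% and AGAGAA in 12.8%.

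ACGCAG, which is not a run of G and A, was in 252 summit windows (8.43%) and 1.97% of flanks (exact McNemar test, adjusted p = 1.24e-27), and in 3.08% of the windows upstream of all starts. Its share was 12.9% at IDR summits and 2.55% at lower-ranked summits. Of 1146 copies within 500 bp of a member summit, 25.2% lay within 50 bp of it, where an even spread would give 10.1%. ACGCAG was picked for its excess in these same windows, so a share above the even spread follows from the choice. Of the 252 windows with ACGCAG, 149 also held 1 of the 4 G and A sequences. By place, ACGCAG was in 10.1% of promoter members, 7.53% of those in introns, 8.33% of those between genes and 3.45% of those in exons.

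At RNA genes 3 of the 4 G and A sequences were no more frequent at the summits than in the flanks. Among the 174 members there, AGAGAG was in 7.47% of summit windows and 4.02% of flanks, GAGAGA in 6.32% and 7.47%, AAGAGA in 8.62% and 9.20%, and AGAGAA in 8.05% and 10.3%. In the 2816 members with no such gene the values were 13.3% and 4.55%, 15.7% and 6.29%, 17.2% and 7.49%, and 21.1% and 10.4%. The difference between these groups of members was not tested. The split by rank was small, with AGAGAG in 14.5% of the 1563 summits of higher rank and 11.3% of the 1427 of lower rank.

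The sequences that were rarer at summits included CTGAAA (11.7% against 21.3%, adjusted p = 1.30e-20) and CTGGAA (4.52% against 9.87%, adjusted p = 2.49e-14), by the exact McNemar test. CTGAAA is TTTCAG on the other strand, which ends as the consensus of the C. elegans 3′ splice site does. It was in 20.9% of lower-ranked summits and 20.6% of their flanks. Windows upstream of all starts held CTGAAA in 15.1% and CTGGAA in 5.81%, below the flank shares of the members. At IDR summits the shares were 8.19% and 3.21%. Of the motifs chosen by name, CACGTG was in 3.14% of summits and 2.11% of flanks (exact McNemar test, adjusted p = 0.0475), in 1.78% of windows upstream of all starts, and did not pass the test among the 1563 members of higher rank (adjusted p = 0.160). CCAAT was in fewer summits than flanks (16.5% against 19.7%, exact McNemar p = 0.0013, not adjusted), with 17.7% upstream of all starts. GAGA was in 65.4% against 55.3% (exact McNemar p = 2.83e-15, not adjusted), with 55.4% upstream of all starts. A match is a run of letters and says nothing of a bound factor.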

How the data were processed

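The authors deposited, for each replicate and for pooled reads, lists of 30000 peaks and background regions, and a list of IDR peaks, in ce10 and ce11. Each holds a signal value and a −log10 q-value per peak, and a summit offset, all made by the authors. The signal scale may differ between lists, so it was used only within a list. The aligner, the peak caller and the IDR threshold were not given in the sources used here, and the lists hold no read totals, so depth is unknown.

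Members and gene lists were chosen with earlier results of these data known. List names were trimmed of some genes of other function after counts were seen. Most genes and sequences named follow a written rule: the highest members overall and per list, and the 6-mers of smallest p. The examples picked by their replicate ranks do not follow it. Windows that touch an untranslated region were passed over for the next member. Members have rank 1708 to 5000, lower-ranked peaks 5001 to 30000, and the higher-ranked members end at 3353. Sequence windows are 101 bp, with 2080 6-mers tested. Summits in the ce11 lists were annotated with Ensembl release 115, with names from RefSeq where missing. A promoter is within 500 bp of a protein-coding start. Replicate ranks are those of the strongest overlapping peak. Fisher's exact and McNemar tests were run in Python 3.11.15 with scipy 1.17.1 and adjusted by the Benjamini-Hochberg method at 0.05, and were tested on simulated data. Shares carry 95% Clopper-Pearson intervals. Alternatives changed the overlap rule, the rank range, the reach, the ranking value, the windows and the build, and dropped the overlap with each replicate list in turn.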

Additional observations from a re-analysis of the deposited data

How the results depend on the processing

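Of the choices tried, the rank range, the replicate lists and the reach moved the counts. Overlap with 1 of the 5000 highest peaks of each replicate left 1020 members, 45.4% of them at a coding start, and 556 genes. The upper ranks alone left 1563 members, 45.6% and 869 genes. A reach of 250 bp gave 29.3% and 975 genes, and a reach of 1000 bp gave 55.4%. Dropping the overlap with replicate 1 or 2 gave 3043 to 3182 members, a share of 42.05 to 42.13% and 1503 to 1567 genes. This could change little, since 3046 of the 3292 nuclear peaks in the range overlapped both lists. The pooled rank still held the reads of both replicates. In the ce10 lists the rule gave 2989 members. The promoter and RNA gene differences from both other sets passed the test in the same direction under every alternative in which they were computed. Chromosome differences that had not passed the test changed sign, in percentage points: chromosome II against lower-ranked peaks -0.19 with 50% of the peak covered and -0.049 after merging, and chromosomes III and IV against IDR peaks 0.31 and -3.14 with the 5000 highest and 0.087 and -1.21 for the upper ranks. Without RNA gene peaks, chromosome X gave 0.93 against IDR peaks and -0.29 against lower-ranked peaks. The cause was not tested. No paired analysis was possible because there is 1 group. Depth is unknown, so no limit from it can be given.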
